A study of Homo sapiens with 8 samples.

Results

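The epidermal growth factor (EGF) family was examined in the human cell line Ea.hy926 as 10 genes chosen by symbol: the receptors EGFR, ERBB2 and ERBB3, the ligands TGFA, HBEGF, AREG, EREG, BTC and NRG1, and the receptor inhibitor ERRFI1. All 10 were found among the 38010 Ensembl gene IDs of the count table. Ea.hy926 arose from the fusion of umbilical vein endothelial cells with the lung carcinoma line A549. An OXPHOS-deficient derivative, named Rho0 as is usual for cells that have lost mitochondrial DNA, was set against the parental line (Eahy), with 4 biological replicates of each. Both lines were cultured to confluence before collection for bulk RNA-seq, and no treatment is given in the labels. How the Rho0 line was made and whether it descends from 1 clone are not stated in these sources. The design holds 1 Rho0 line and 1 parental line, so respiration and any other difference between them cannot be told apart.

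EGF family ligands are made as membrane-anchored precursors and are released by metalloproteinases. EGFR binds TGFA, HBEGF, AREG, EREG and BTC, whereas NRG1 binds ERBB3 and ERBB4. Bound receptors pair, often with ERBB2, which has no known ligand of its own, and signal through the RAS-ERK and PI3K-AKT pathways. ERK signalling induces transcripts that encode its own inhibitors as well as some of the EGFR ligands. In endothelium the family is known for roles in growth and in angiogenesis, and the A549 parent is an epithelial cell type in which EGFR is a main growth receptor.

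The ligands share an EGF-like domain, which is the part that contacts the receptor. Coding sequences of this domain are shown for TGFA, HBEGF, AREG and EREG because these are the EGFR ligands whose mRNAs are compared below. Capitals mark the 6 cysteine codons, whose spacing a script found once in each coding sequence. Sequences run 5′ to 3′ on the coding strand and come from GENCODE 29 (GRCh38).
TGFA: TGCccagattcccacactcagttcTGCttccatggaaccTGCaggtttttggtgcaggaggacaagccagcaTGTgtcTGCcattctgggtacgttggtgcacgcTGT
HBEGF: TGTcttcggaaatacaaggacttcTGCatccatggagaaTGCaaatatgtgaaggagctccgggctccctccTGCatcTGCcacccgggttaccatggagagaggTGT
AREG: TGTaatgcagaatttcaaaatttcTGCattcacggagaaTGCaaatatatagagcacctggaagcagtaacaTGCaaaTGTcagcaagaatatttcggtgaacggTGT
EREG: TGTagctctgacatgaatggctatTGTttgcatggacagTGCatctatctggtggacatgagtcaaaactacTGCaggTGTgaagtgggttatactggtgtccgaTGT
All 4 domains were 108 bases long, or 36 codons, with 7, 4, 10, 1 and 8 codons between successive cysteines. In each gene the domain was split between exon 3 and exon 4. It lay at chr2:70456458-70465692 on the minus strand for TGFA, chr5:140335997-140342711 on the minus strand for HBEGF, chr4:74449172-74450410 on the plus strand for AREG and chr4:74381061-74382675 on the plus strand for EREG.

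The label of the Rho0 line was checked with the 13 protein-coding genes of mitochondrial DNA, all of which were lower in Rho0. They took 0.149% of the counts in Rho0 replicate 2, the library with the fewest counts. In Rho0 replicates 1, 3 and 4 they took 0.00431%, 0.00756% and 0.00296%, and in parental libraries 16.05% to 21.4%. The libraries held 11721708 to 37203507 estimated counts in Rho0 and 23366190 to 28599386 in the parental line. On the second principal component (6.24% of the variance) Rho0 replicate 4 lay farthest from the others. The endothelial markers PECAM1 and CDH5 were present in both lines and differed in opposite directions. PECAM1 was at 2118 ± 67.2 CPM in Rho0 and 1086 ± 41.4 CPM in parental cells (CPM, counts scaled to TMM-adjusted library size, with SD, n = 4 each). CDH5 was at 1034 ± 32.7 CPM in Rho0 and 1718 ± 92.5 CPM in parental cells (log2 fold change -0.73).

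In Rho0 cells the receptor EGFR and the ligands TGFA and NRG1 rose, and the ligands HBEGF and AREG fell. The receptors ERBB2 and ERBB3, the ligand EREG and the inhibitor ERRFI1 did not pass the test, and BTC had too few counts to be tested. Of the 9 genes tested, 5 were therefore called, 3 higher and 2 lower, at an edgeR quasi-likelihood adjusted p of 0.05. Over all 15184 genes tested, 54.4% were called, 29.0% higher and 25.4% lower, so the share of called family members lay near that of all genes. The same 5 genes had libraries that did not overlap between the lines, 3 above and 2 below, as had 50.9% of all genes (26.6% above, 24.3% below). DESeq2's Wald test called 3 higher and 2 lower as well, against 26.5% and 27.0% of all genes. The sizes covered a wide range: TGFA, AREG and NRG1 changed by more than 1 log2 unit, a size that 14.3% of all genes tested reached together with a call. In bulk RNA, fewer cells that express a gene and less RNA per cell cannot be told apart.

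**Figure D1:**
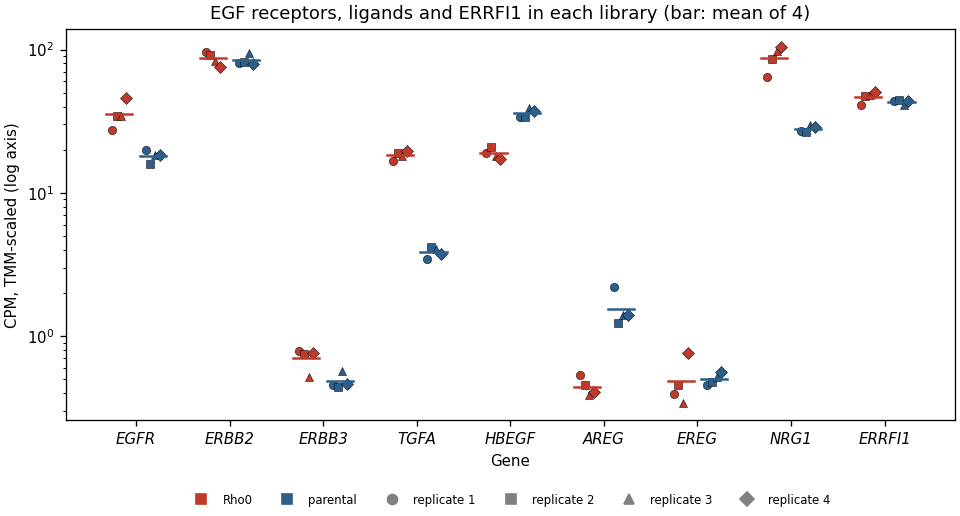
Each point is the CPM of 1 library on a log axis for the 9 family genes tested, Rho0 left of parental, with bars at the means of 4 libraries. TGFA, NRG1 and EGFR lie wholly higher in Rho0, HBEGF and AREG wholly lower, and the other 4 genes overlap.

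EGFR (ENSG00000146648, chromosome 7, 55019021 to 55211628) encodes the receptor that all the EGFR ligands share. It had 27.3, 34.5, 34.3 and 46.2 CPM in Rho0 replicates 1 to 4, against 19.9, 15.8, 18.5 and 18.3 CPM in parental replicates 1 to 4. Every Rho0 library was above every parental library, with replicate 4 the highest. The log2 fold change was 0.98 (SE 0.15, edgeR adjusted p = 0.000249), a 1.97-fold higher level. Without Rho0 replicate 4 it was 0.81.

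ERBB2 (ENSG00000141736, chromosome 17, 39687914 to 39730426) encodes the ligand-less partner receptor. Its level was 96.2, 92.1, 83.0 and 75.5 CPM in Rho0 libraries, against 80.6, 81.5, 94.5 and 79.4 CPM in parental libraries. These ranges overlapped, and the difference was not called (edgeR adjusted p = 0.707, at a log2 fold change of 0.05 with SE 0.09). ERBB3 (ENSG00000065361, chromosome 12, 56076799 to 56103505), a neuregulin receptor with little kinase activity of its own, was low in both lines. It had 0.786, 0.753, 0.515 and 0.766 CPM in Rho0, against 0.459, 0.437, 0.567 and 0.465 CPM in parental cells, from 84 and 42 counts in all. Rho0 replicate 3 lay inside the parental range, and the test was not passed (log2 fold change 0.56, SE 0.24, edgeR adjusted p = 0.067). Its call depended on that library: without it, ERBB3 was called higher, at 0.66 (edgeR adjusted p = 0.0465).

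ERBB4, the other neuregulin receptor and no member of the chosen 10, was under the filter on low counts. It had 32 counts over the 4 Rho0 libraries and 1 count over the 4 parental libraries, a ratio of 24.1 with an exact 95% counting interval of 4.03 to 982 (Clopper-Pearson, covering counting error only). In Rho0 that came to 0.196, 0.301, 0.343 and 0.293 CPM, and the parental count was in replicate 4. ERBB4 was singled out after its values were seen.

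TGFA (ENSG00000163235, chromosome 2, 70447280 to 70554193), which encodes the EGFR ligand transforming growth factor alpha, changed most among the family genes tested. Rho0 libraries had 16.6, 19.0, 18.1 and 19.6 CPM, against 3.44, 4.22, 4.02 and 3.77 CPM in parental libraries. The lowest Rho0 library was far above the highest parental library. TGFA averaged 18.3 ± 1.34 CPM in Rho0 and 3.86 ± 0.334 CPM in parental cells (SD, n = 4 each), a 4.73-fold rise (log2 fold change 2.24, SE 0.10, edgeR adjusted p = 3.6e-08).

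NRG1 (ENSG00000157168, chromosome 8, 31639386 to 32767959) encodes neuregulin 1, which signals through ERBB3 and ERBB4. It had 64.8, 85.3, 97.6 and 105 CPM in Rho0 libraries, against 27.1, 26.6, 29.8 and 28.7 CPM in parental libraries. The Rho0 libraries varied more than the parental ones, and all of them lay above. NRG1 rose 3.14-fold (log2 fold change 1.65, SE 0.14, edgeR adjusted p = 2.8e-06).

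HBEGF (ENSG00000113070, chromosome 5, 140332843 to 140346631), the heparin-binding ligand of EGFR and ERBB4, moved the other way from TGFA. It had 19.1, 21.0, 18.1 and 17.2 CPM in Rho0 libraries, against 33.9, 33.6, 39.2 and 37.3 CPM in parental libraries. No Rho0 library reached the parental range. The log2 fold change was -0.94 (SE 0.09, edgeR adjusted p = 7.8e-06), 1.92-fold lower in Rho0.

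AREG (ENSG00000109321, chr4:74445134-74455009) encodes amphiregulin, a weaker-binding EGFR ligand. At 0.533, 0.452, 0.386 and 0.406 CPM in Rho0 and 2.20, 1.23, 1.39 and 1.40 CPM in parental cells, it was among the low genes of the family. All Rho0 libraries were below all parental libraries, although the difference rests on 52 counts in Rho0 and 136 in the parental line. AREG fell by 1.79 on the log2 scale (SE 0.25, edgeR adjusted p = 0.000159). In the deposited log2 table its difference was -0.82, also called, with limma.

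EREG (ENSG00000124882, chr4:74365143-74388751), which encodes epiregulin, a ligand of EGFR and ERBB4, had 0.393, 0.452, 0.343 and 0.766 CPM in Rho0, against 0.459, 0.477, 0.516 and 0.558 CPM in parental cells. Rho0 replicate 4 was above and the other 3 Rho0 libraries below the parental range, so no direction can be given (log2 fold change 0.02, SE 0.30, edgeR adjusted p = 0.956). Without Rho0 replicate 4 the log2 fold change was -0.37, also not called. BTC (ENSG00000174808, chr4:74744759-74794686), the betacellulin gene, had 3 counts in Rho0 replicate 1 and none in the other 7 libraries. A count of 0 allows up to 3 counts, or 0.0676 to 0.226 CPM in a Rho0 library and 0.119 to 0.155 CPM in a parental library, so a difference was not detectable at this depth.

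ERRFI1 (ENSG00000116285, chromosome 1, 8004404 to 8026308) encodes MIG6, an inhibitor that binds the kinase domain of EGFR family receptors and is itself induced by growth factor signalling. Its level was 41.3, 47.2, 48.0 and 50.6 CPM in Rho0, against 44.0, 44.5, 41.0 and 43.6 CPM in parental cells. The ranges overlapped and the test was not passed (log2 fold change 0.11, SE 0.08, edgeR adjusted p = 0.246).

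Scaling between libraries bears on these values. With TMM the genes tested had a median log2 fold change of 0.05. Total counts alone as the scale put that median at 0.44, and every family gene tested moved up with it. TGFA, NRG1 and EGFR were then at 2.64, 2.05 and 1.37, and HBEGF and AREG at -0.55 and -1.40, all 5 still called. ERBB2, ERBB3 and ERRFI1 were called higher under that scaling, at 0.44, 0.95 and 0.50, in a setting that called 56.5% of all genes higher and 10.1% lower. A length and GC correction, chosen after seeing the data, called 5 members higher and 2 lower, against 29.3% and 31.1% of all genes, ERBB2 and ERBB3 being the added calls. Relative to the median of all genes by total counts, ERBB2 and ERRFI1 were within 0.1 log2 units.

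**Figure D2:**
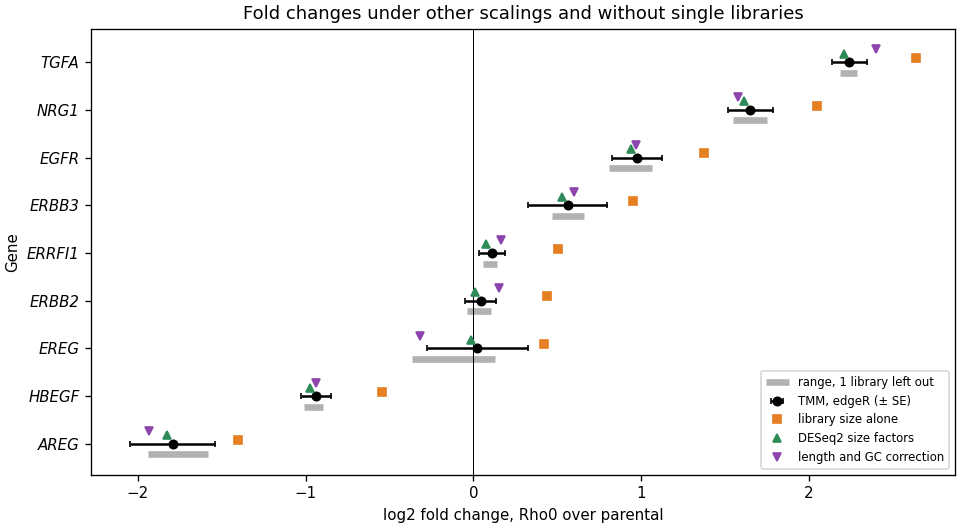
Points are log2 fold changes (Rho0 over parental) of the 9 family genes tested, with SE for the TMM fit, and grey bars are ranges when 1 library is left out. The 5 called genes stay on their side of 0 in every setting drawn, whereas scaling by total counts (library size alone) shifts all 9 genes upward.

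Ratios of members within a library do not depend on scaling between libraries. TGFA counts were 0.868, 0.903, 0.998 and 1.14 times those of HBEGF in Rho0 replicates 1 to 4, against 0.101, 0.125, 0.103 and 0.101 times in parental replicates 1 to 4. These ratios did not overlap between the lines. The ratio of EGFR to ERBB2 counts was 0.284, 0.375, 0.413 and 0.611 in Rho0 libraries, against 0.247, 0.194, 0.195 and 0.230 in parental libraries. Rho0 replicate 1 stood nearest to the parental range and replicate 4 farthest from it. ERRFI1 counts were 1.09 to 1.51 times those of EGFR in Rho0 and 2.21 to 2.81 times in parental cells, so the inhibitor was lower relative to this receptor in every Rho0 library. These ratios are descriptions and were not tested.

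**Figure D3:**
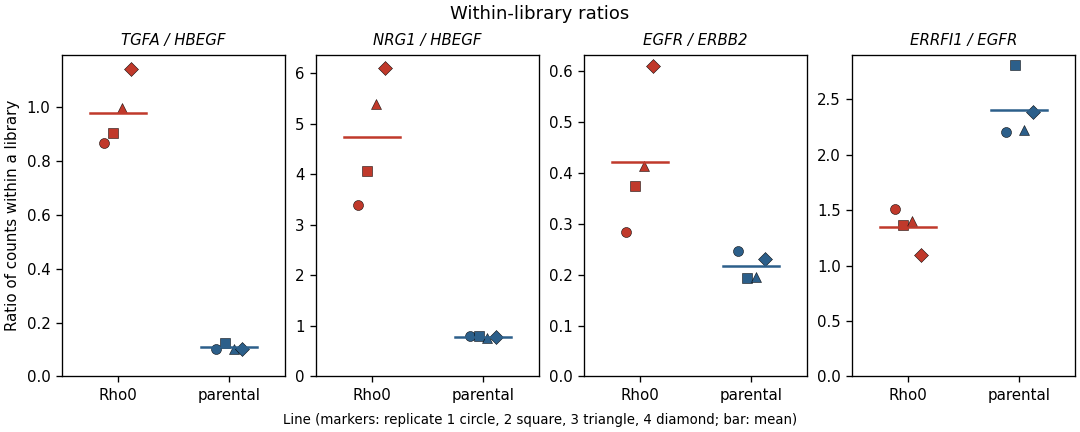
Each point is the ratio of the counts of 1 family gene to another within 1 library (linear axes from 0), Rho0 left of parental, with bars at the means of 4. In all 4 ratios the lines do not overlap, and EGFR over ERBB2 runs from 0.284 to 0.611 within Rho0.

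Levels of different genes were compared as CPM per kilobase, using the median length of a gene's annotated transcripts. In Rho0 the order was ERBB2 (74.4 ± 7.95 CPM per kilobase), NRG1 (70.4 ± 13.95), ERRFI1 (47.0 ± 3.93), TGFA (22.5 ± 1.65), EGFR (15.9 ± 3.49) and HBEGF (15.3 ± 1.34), with SD over 4 libraries. ERBB2 and NRG1 overlapped between libraries, as did EGFR and HBEGF, and EGFR reached the TGFA range in replicate 4. Within each Rho0 library, however, TGFA stood above EGFR by median length. In parental cells it was ERBB2 (72.1 ± 6.04 CPM per kilobase), ERRFI1 (43.5 ± 1.55), HBEGF (29.3 ± 2.19), NRG1 (22.4 ± 1.17), EGFR (8.09 ± 0.758) and TGFA (4.76 ± 0.412). ERBB3, AREG, EREG and BTC were below 2 CPM per kilobase on average in both lines. Per longest transcript the first 6 in Rho0 were ERBB2, ERRFI1, NRG1, HBEGF, TGFA and EGFR, so all of these but ERBB2 changed place with the length used. In parental cells HBEGF then stood above ERRFI1, and AREG (1.25 ± 0.353 CPM per kilobase) above TGFA (0.896 ± 0.0776).

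Among the 5 EGFR ligands, TGFA made up 58.2 ± 2.81% of the summed CPM per kilobase in Rho0 and 13.2 ± 1.33% in parental cells. HBEGF made up 39.6 ± 2.91% in Rho0 and 81.1 ± 1.36% in parental cells (SD, n = 4 each). Which ligand led in Rho0 depended on the length used: per longest transcript, TGFA made up 33.7 ± 2.72% in Rho0 and 5.18 ± 0.593% in parental cells, and HBEGF 62.5 ± 2.70% in Rho0 and 86.9 ± 1.91% in parental cells. The higher share of TGFA in Rho0 held with either length. AREG made up 1.20 ± 0.21% in Rho0 and 4.55 ± 1.43% in parental cells per median length. Per longest transcript it made up 2.84 ± 0.423% in Rho0 and 7.26 ± 2.17% in parental cells, where its mean share was then above that of TGFA. EREG made up about 1% in both lines per median length.

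**Figure D4:**
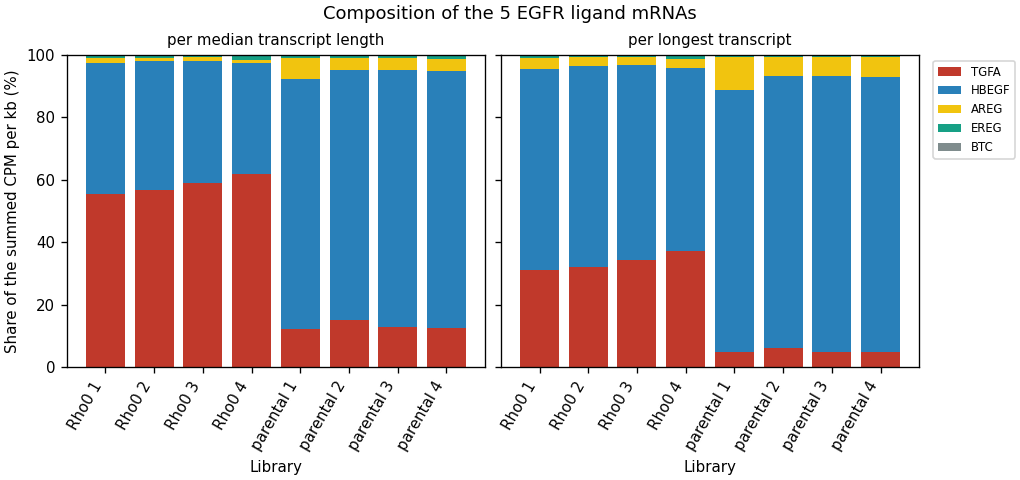
Stacked bars give the share (%) of each of 5 EGFR ligands in their summed CPM per kilobase, 1 bar per library, Rho0 left of parental, per median transcript length and per longest transcript. TGFA is 55.4% to 61.7% in Rho0 libraries and 12.3% to 15.2% in parental libraries per median length, and HBEGF fills most of the rest.

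AREG, EREG and BTC lie in 1 cluster on chromosome 4 together with EPGN, the epigen gene, which had no count in any library. Of these 4 ligand genes 2 were tested and AREG alone was called, beside 54.4% of all genes tested. The difference between AREG and EREG was not tested. Upstream of EPGN, the folate enzyme gene MTHFD2L was 1.34-fold higher in Rho0 (log2 fold change 0.42, edgeR adjusted p = 0.0356). PARM1, on the far side of BTC, had no count in Rho0 and 9 counts in parental libraries.

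The promoters of the receptor and of the 3 EGFR ligands that moved are shown because the ligands went in different directions. Each window is the 250 bases before the gene's start in RefSeq (GRCh38.p14), 5′ to 3′ on the gene's strand. Capitals mark GC boxes (GGGCGG, or CCGCCC on the other strand) and the cyclic AMP response element (TGACGTCA), which reads the same on both strands.
EGFR: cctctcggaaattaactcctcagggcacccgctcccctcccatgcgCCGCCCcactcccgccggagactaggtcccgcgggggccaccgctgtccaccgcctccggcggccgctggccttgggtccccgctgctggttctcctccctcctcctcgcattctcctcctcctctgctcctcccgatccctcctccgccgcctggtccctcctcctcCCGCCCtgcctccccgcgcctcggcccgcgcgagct
TGFA: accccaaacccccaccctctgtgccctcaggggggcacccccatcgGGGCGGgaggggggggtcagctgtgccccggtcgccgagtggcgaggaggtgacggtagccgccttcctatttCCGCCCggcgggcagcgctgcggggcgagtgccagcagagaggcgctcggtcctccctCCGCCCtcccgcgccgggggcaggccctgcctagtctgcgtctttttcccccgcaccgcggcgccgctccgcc
HBEGF: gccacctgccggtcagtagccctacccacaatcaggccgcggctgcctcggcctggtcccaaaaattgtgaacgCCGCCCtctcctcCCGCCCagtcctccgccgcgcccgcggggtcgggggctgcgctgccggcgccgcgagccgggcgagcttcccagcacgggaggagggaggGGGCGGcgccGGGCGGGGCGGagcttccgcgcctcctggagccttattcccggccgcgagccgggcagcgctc
AREG: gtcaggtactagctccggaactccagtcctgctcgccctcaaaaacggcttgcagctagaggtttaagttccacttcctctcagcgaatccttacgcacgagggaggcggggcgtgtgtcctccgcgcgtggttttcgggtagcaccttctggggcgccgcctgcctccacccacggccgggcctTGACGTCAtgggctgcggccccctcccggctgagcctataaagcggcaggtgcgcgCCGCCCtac
The windows lie at chr7:55018767-55019016 (plus strand), chr2:70553827-70554076 (minus), chr5:140346604-140346853 (minus) and chr4:74444886-74445135 (plus), in the order shown. GC boxes were found 2 times before EGFR, 3 times before TGFA, 5 times before HBEGF, where a pair overlap, and 1 time before AREG. Of all 35116 RefSeq windows of that length, 42.6% held a GC box. AREG had 1 cyclic AMP response element, a motif in 1.65% of all windows, and 1 TATAAA, which on either strand was in 10.7%. TGANTCA, the AP-1 motif, was in none of the 4 windows and in 6.57% of all windows. GC content was 73.6% before EGFR, 75.6% before TGFA, 76.4% before HBEGF and 65.2% before AREG, against a median of 58% over all windows. All 4 windows were above that median, those of the genes that rose and of those that fell. A match is a description of letters only.

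Across the 8 libraries, FOXN3, a forkhead transcription repressor, had the pattern most like that of TGFA among 10546 protein-coding candidates (root-mean-square distance 0.08 in centred log2 CPM, r = 0.998). FOXN3 averaged 33.3 ± 4.01 CPM in Rho0 and 6.62 ± 0.440 CPM in parental cells (SD, n = 4 each). For AREG it was NES, the gene of the intermediate filament nestin (distance 0.17, r = 0.982), with 3.98 ± 0.370 CPM in Rho0 and 11.8 ± 1.11 CPM in parental cells. For NRG1 it was FLRT2, a membrane protein gene of cell guidance (distance 0.07, r = 0.997), with 176 ± 26.1 CPM in Rho0 and 56.0 ± 1.23 CPM in parental cells. The 8 points behind each r share the difference between the lines.

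The remaining receptors and ligands of the family were mostly near the limit of detection. Of 6 genes (ERBB4, EGF, EPGN, NRG2, NRG3 and NRG4), 2 were tested and 1 was called, beside 54.4% of all genes tested. NRG2, a further neuregulin, had 6.17, 6.48, 6.52 and 4.55 CPM in Rho0, against 12.7, 11.3, 12.4 and 13.5 CPM in parental cells. It was lower in every Rho0 library (log2 fold change -1.09, SE 0.13, edgeR adjusted p = 4.3e-05), opposite in direction to NRG1. EGF itself had 4 counts in Rho0 and 2 in parental libraries.

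Among 9 genes tested for ligand shedding and its control, 4 were higher and 3 lower in Rho0 (median log2 fold change 0.23), beside 29.0% higher and 25.4% lower among all genes. The 4 higher genes were the ADAM metalloproteinases tested, ADAM17, ADAM9, ADAM10 (0.42) and ADAM19 (0.23), and the 3 lower ones were RHBDF1, TIMP3 and FRMD8. ADAM10, ADAM19 and FRMD8, an iRhom-binding factor, are named after their values were seen. FRMD8 was at -0.22 and, by total counts alone, at 0.17. ADAM17, the main protease that sheds TGFA, AREG and HBEGF, rose to 83.6 ± 11.1 CPM in Rho0, against 57.2 ± 1.51 CPM in parental cells (log2 fold change 0.55, SE 0.09, edgeR adjusted p = 0.00059). ADAM9 rose by 1.01 on the log2 scale, and 0.76 without Rho0 replicate 4. RHBDF1, encoding an iRhom cofactor of ADAM17, fell to 160 ± 16.2 CPM in Rho0, against 303 ± 9.99 CPM in parental cells (log2 fold change -0.92), and TIMP3, an inhibitor of ADAM17, fell by 0.63. ADAM17, ADAM9, RHBDF1 and TIMP3 kept their call by total counts alone, TIMP3 at -0.23.

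In the relay from receptor to ERK, 6 of 18 genes rose and 7 fell, with a median of 0.02, beside 29.0% higher and 25.4% lower among all genes. By total counts alone, 11 were higher and 3 lower, beside 56.5% and 10.1% of all genes. With DESeq2 size factors 3 were higher. The share of all genes in that setting is not given beside this count, so it cannot be read as particular to this list. GAB1, a docking adaptor for EGFR signalling, fell most, to 13.7 ± 2.86 CPM in Rho0, against 36.1 ± 0.550 CPM in parental cells (log2 fold change -1.40, SE 0.14, edgeR adjusted p = 1.1e-05). SHC1, an adaptor, and the kinase ARAF fell by 0.62 and 0.68, and the RAS exchange factor SOS1 rose by 0.75. Without Rho0 replicate 4, SHC1, ARAF and SOS1 were at -0.57, -0.58 and 0.52, still called. Leaving out Rho0 replicate 2 or 3, or parental replicate 1, 2 or 4, left 3 genes called higher in this list. Calls over all genes shift in such fits too, and their ranges are given in the closing section.

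Of 23 genes tested for receptor uptake, ubiquitination and restraint, 10 rose and 4 fell (median 0.18), beside 29.0% and 25.4% of all genes. By total counts alone it was 18 and 0, beside 56.5% and 10.1% of all genes. CBLB, a ubiquitin ligase that targets activated EGFR, rose to 36.1 ± 5.03 CPM in Rho0, against 15.1 ± 1.26 CPM in parental cells (log2 fold change 1.25, SE 0.11, edgeR adjusted p = 6.2e-06). STAM2, an endosomal sorting gene, the suppressor SOCS5 and the endocytic adaptor EPN2 rose by 0.92, 0.83 and 0.53. Without Rho0 replicate 4, STAM2, SOCS5 and EPN2 were at 0.80, 0.66 and 0.55, still called. The 4 called lower, named after their values were seen, were CBL, the related ubiquitin ligase, at -0.33, the endocytic adaptors EPS15L1 and EPN1 at -0.47 and -0.39, and the phosphatase PTPN1 at -0.28. CBL had 91.8 ± 14.7 CPM in Rho0 and 115 ± 5.18 CPM in parental cells (SD, n = 4 each). None of these 4 was called by total counts alone, and CBL and PTPN1 were then at 0.07 and 0.11.

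ERK feedback inhibitors and ERK-responsive transcripts divided as well. Of 14 feedback genes tested, 4 rose and 4 fell (median 0.10), beside 29.0% and 25.4% of all genes. By total counts alone it was 9 and 3, beside 56.5% and 10.1% of all genes. The ERK phosphatase gene DUSP5 fell to 24.8, 25.7, 22.8 and 22.7 CPM in Rho0 libraries, against 141, 143, 147 and 143 CPM in parental libraries (log2 fold change -2.58, SE 0.07, edgeR adjusted p = 1.7e-09). Other genes that fell, named after their values were seen, were the phosphatase genes DUSP4, DUSP6 and DUSP7, by 0.73, 0.69 and 0.26. DUSP4 and DUSP6 kept their call by total counts alone, at -0.34 and -0.30, while DUSP7 was at 0.14 and not called. RASA1, SPRED1 and NF1, which restrain RAS, rose by 0.94, 0.92 and 0.79. Without Rho0 replicate 4, RASA1, SPRED1 and NF1 were at 0.77, 0.82 and 0.61, still called. The largest rise in this list, named after its values were seen, was that of SPRY3, by 1.33. It had 3.62 ± 0.623 CPM in Rho0 and 1.44 ± 0.122 CPM in parental cells. Of 17 ERK-responsive transcripts tested, 2 rose and 5 fell (median 0.02), and 11 and 1 by total counts alone, beside the same shares of all genes. EGR1, an immediate early factor, rose to 5.40 ± 0.834 CPM in Rho0, against 1.62 ± 0.327 CPM in parental cells, and MYC rose by 0.34. ETV4 and ETV5, transcription factors induced by ERK, fell by 1.05 and 0.45, and ETV5 lost its call by total counts alone. With the length and GC correction, 4 of these 17 were called higher, beside 29.3% of all genes.

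The PI3K-AKT list had the highest median of the pathway lists, 0.41, with 8 of 14 genes higher and 2 lower, beside 29.0% and 25.4% of all genes. By total counts alone it was 11 and 0, beside 56.5% and 10.1% of all genes. PIK3CD, the p110-delta catalytic subunit best known from leukocytes, rose to 8.14 ± 0.688 CPM in Rho0, against 0.420 ± 0.0969 CPM in parental cells (log2 fold change 4.26, SE 0.17, edgeR adjusted p = 1.6e-08). Genes of regulatory subunits, PIK3R1 and PIK3R3, rose by 1.46 and 0.89, and by 1.29 and 0.81 without Rho0 replicate 4. PHLPP2, an AKT phosphatase, fell by 0.70 and lost its call by total counts alone. Against these medians, that of all genes tested was 0.05, and no list is singled out by them.

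**Figure D5:**
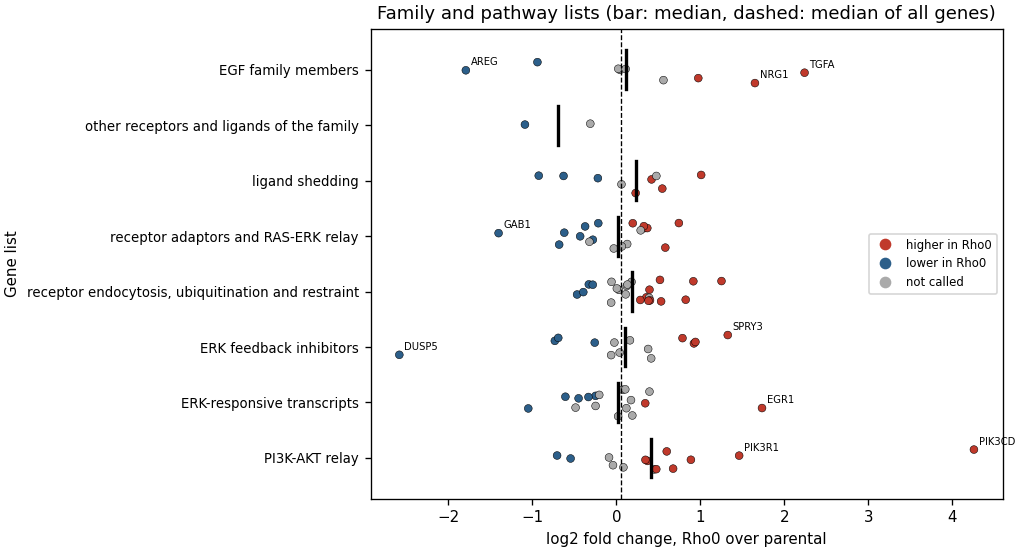
Points are log2 fold changes (Rho0 over parental) of the genes tested in the family and in 7 pathway lists, red where called higher, blue where called lower and grey where not called. Bars are list medians, from -0.70 to 0.41, beside the dashed median of all genes at 0.05, and each list with more than 2 genes holds calls in both directions.

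Markers of endothelium and epithelium, the cell types of the fusion parents, and of fibroblasts and leukocytes were examined. Their part in these results was not tested. Among all genes 54.4% were called, 29.0% higher and 25.4% lower, beside which the marker counts stand. Of 14 endothelial markers, 4 were higher and 5 lower in Rho0, with summed levels of 7472 to 8637 CPM in Rho0 and 7455 to 8433 CPM in parental libraries. By total counts alone, 8 endothelial markers were higher and 3 lower, beside 56.5% and 10.1% of all genes. KDR was higher by 3.24 and EMCN lower by 4.24 on the log2 scale. Of 14 epithelial markers, 10 were tested, 2 were higher and 5 lower, with sums of 1312 to 2100 CPM in Rho0 and 2625 to 2898 CPM in parental libraries. KRT8 and KRT18 were at -1.21 and -0.89. EPCAM and MUC1 were the 2 called higher, at 1.13 and 0.54, and the abundant KRT7 was not called, with 830 ± 147 CPM in Rho0 and 912 ± 32.0 CPM in parental cells. KRT19, ESRP1, GRHL2 and ELF3 were under the filter. Fibroblast markers summed to 25.8 to 39.7 CPM in Rho0 and 6.42 to 7.06 CPM in parental libraries, 2 of the 4 tested being higher and 1 lower, and LUM was at 0 in the parental line. FAP made up most of that sum, with 29.2 ± 6.14 CPM in Rho0 and 4.57 ± 0.536 CPM in parental cells, and the other 7 markers averaged under 1 CPM in both lines. DCN was the other one called higher, at 1.22, and PDGFRB was called lower, at -0.78. EPCAM, KRT7, DCN and PDGFRB are named after their values were seen. Leukocyte markers summed to 123 to 142 CPM in Rho0 and 98.3 to 121 CPM in parental libraries, 3 of the 4 tested being higher and 1 lower. CD68 made up most of that sum, with 127 ± 9.14 CPM in Rho0 and 104 ± 9.54 CPM in parental cells. LYZ was higher by 1.87 on the log2 scale, with 5.10 ± 0.444 CPM in Rho0 and 1.40 ± 0.225 CPM in parental cells. PTPRC was called higher, at 0.66, and CSF1R lower, at -1.42. PTPRC and CSF1R are named after their values were seen. CD3E was at 0 in both lines. Without Rho0 replicate 3, 1 leukocyte marker was called higher. PDGFRB lost its call by total counts alone and without Rho0 replicate 3 or parental replicate 1, 2 or 4. Ranges of calls over all genes with single libraries left out are given in the closing section.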

How the data were processed

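RNA-seq of 8 libraries (4 Rho0, 4 parental) was analysed. Per the labels' protocols, libraries kept strand and were enriched for poly-A RNA. The authors deposited estimated counts (expected counts, not whole) for 38010 gene IDs, and log2 values for 12885 genes. Kallisto, edgeR, limma and GRCh38 are named, without roles, in the submitters' processing notes; these sources state no annotation release. No column belonged to another sample.

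Symbols (34284 IDs named), coordinates and transcript lengths came from a gene name table and GENCODE 29, which may differ from the annotation the authors used. Estimated counts were rounded and fitted for the whole table in edgeR 4.0.16 (R 4.3.3): TMM scaling, a filterByExpr minimum of 10, and line as the term of the quasi-likelihood F-test. The Benjamini-Hochberg adjustment ran over 15184 genes, with calls at 0.05. SE is the log2 fold change divided by the square root of F. CPM was taken over TMM-scaled library sizes, 1 count being worth 0.0225 to 0.0753 CPM. Likeness used log2 CPM with a prior count of 2. Counts of nearly identical copies can be split by the authors' counting.

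The family and the other lists (13 lists, 172 genes, all 172 matched) were chosen with earlier results of these data known. Named genes are the 10 members and, per list, up to 4 called genes with the largest change and at least 5 CPM in the higher line. Further, the gene most alike was named for the 3 members with the largest change, with the neighbours of the ligand cluster. The fit was tested on simulated data. No pair of libraries of a line agreed within sampling noise (lowest chi-square per degree of freedom 4.21). Replicates are labelled as biological replicates of 1 line each. The p-values therefore set the difference between the lines against the spread among replicates within a line. They do not cover variation between separately made Rho0 lines. Alternatives were other scalings, filters and tests (DESeq2 1.42.0, limma 3.58.1), the replicate number as a block, and omission of single libraries. Figures used Python 3.11.15 and matplotlib 3.10.9.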

Additional observations from a re-analysis of the deposited data

Results flagged for a closer look

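In 3 groups of 4 libraries, 1 library lay far from the other 3 by Dixon's test at the 95% level, which chance alone meets in about 1 of 20 groups, and the 10 genes gave up to 20 groups. ERBB3 in Rho0 replicate 3 had 0.515 CPM, against 0.753 to 0.786 CPM in the other Rho0 libraries. ERBB2 in parental replicate 3 had 94.5 CPM, against 79.4 to 81.5 CPM in the other parental libraries. AREG in parental replicate 1 had 2.20 CPM, against 1.23 to 1.40 CPM in the other parental libraries, and its log2 fold change without that library was -1.58, still called.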

How the results depend on the processing

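The 5 calls (EGFR, TGFA, NRG1, HBEGF, AREG) kept their direction and call in each of the 18 alternatives in which the gene was tested (17 for AREG). TGFA ranged from 2.00 to 2.64, NRG1 from 1.55 to 2.05, EGFR from 0.81 to 1.37, HBEGF from -1.01 to -0.55 and AREG from -1.94 to -0.82, the last in the deposited log2 table. Members called were 6 higher when scaled by library size alone and 5 higher after a correction for length and GC content, which was chosen after seeing the data. A filter of 50 counts in 4 libraries left 1 called lower, because AREG was not tested. Leaving out 1 library gave 3 to 4 higher and 2 lower. EREG changed sign with DESeq2 size factors (-0.015), the DESeq2 Wald test (-0.036), limma-voom (-0.041), the replicate block (-0.053) and the length and GC correction (-0.32), and from -0.37 to 0.13 without 1 library. ERBB2 was at -0.035 to 0.10 without 1 library and called at 0.16 after the length and GC correction. The causes were not tested. Over all genes, scaling by library size alone called 8583 higher and 1540 lower, against 4399 and 3858, and leaving out 1 library gave 3774 to 4591 higher and 3415 to 4391 lower. Of 432 recomputed list counts, 35 moved by more than 1.5 times. Replicate numbers did not pair the libraries (correlations of same-numbered libraries -0.13 to 0.16, with 3 of 8 libraries closest to their own number), and a fit with the replicate block called 3 members higher and 2 lower, and 4215 and 3802 genes over all. Depth limits BTC, ERBB3, AREG and EREG.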
